A study of Rattus norvegicus with 22 samples.

Results

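The genes described here are 35 markers of macrophages and other leukocytes, read in engineered cardiac tissue of the rat. They were chosen by name, as the probes whose gene name on the array is one of the 35 symbols (Adgre1 is printed there as Emr1), which took 41 of 30367 probes and 35 of 26442 gene names. The tissue was built from ventricle cells of Sprague Dawley rat embryos at gestational day 14.5, mixed with matrix, held between anchors and cultured for 7 days. All 4 groups share that source and culture time, and treatments began on culture day 5. Control tissue was neither stretched nor drugged (7 arrays). Stretch tissue was elongated by 5% at 0.5 Hz for 48 h (7 arrays). BIRB796 tissue received 10 µM of BIRB796, an inhibitor of p38 mitogen-activated protein kinases, for 48 h without stretch (4 arrays). Tissue with stretch and BIRB796 received both for 48 h (4 arrays). The series calls its replicates biological, but the labels give neither the leukocyte content of the cells nor the litter or culture behind an array, so p-values here measure how much these samples vary, which may be technical. RNA of each sample was read on a 1-colour Agilent array.

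Macrophages settle in the heart before birth and live among its muscle cells, where they clear dying cells and debris and shape vessels and matrix. They depend on the receptor Csf1r and its ligands Csf1 and Il34, and on the transcription factor PU.1, the product of Spi1. They recognise targets through complement, Fc, scavenger and lectin receptors, and pass many of these signals through adaptors with the tyrosine motif known as ITAM. Kinases of the p38 family are best known in macrophages for carrying inflammatory signals to cytokine genes. In RNA from whole tissue, fewer macrophages and less RNA per macrophage cannot be told apart.

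PU.1 binds DNA around the core GAGGAA. The sequence before the members' transcription start was searched for that core on both strands (its reverse complement is TTCCTC). No other motif was searched. RefSeq promoter sequences of build GRCr8 were at hand for 24 of the 35 members. The 250 bases upstream of the start held at least 1 match in 17 of these 24, or 70.8%, against 23.2% of 27457 rat promoters of the same length. A match describes letters and is not evidence of binding. The members were chosen as macrophage and leukocyte genes, so this comparison with all promoters does not bear on the treatments. Whether matches relate to the changes below was not tested. The 5 members shown had the smallest p in the comparison of both treatments with control among those the table holds, and C3ar1, without a match, was next. Each line runs 5′ to 3′ on the strand of the gene and ends at the base before the start, and capitals mark the matches.
Adgre1 (GRCr8, chr9:2329190-2329439, plus strand): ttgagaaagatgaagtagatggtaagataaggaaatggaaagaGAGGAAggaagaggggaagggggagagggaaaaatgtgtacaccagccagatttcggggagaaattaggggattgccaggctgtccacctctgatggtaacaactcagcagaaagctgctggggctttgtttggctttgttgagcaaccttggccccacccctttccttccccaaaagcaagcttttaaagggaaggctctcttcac
Cd68 (GRCr8, chr10:54882442-54882691, minus strand): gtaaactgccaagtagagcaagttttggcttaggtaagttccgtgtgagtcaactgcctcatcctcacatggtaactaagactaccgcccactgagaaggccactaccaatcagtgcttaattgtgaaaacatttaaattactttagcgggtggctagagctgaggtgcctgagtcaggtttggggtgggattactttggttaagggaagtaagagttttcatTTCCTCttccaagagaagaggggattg
Fcgr3a (GRCr8, chr13:85782386-85782635, plus strand): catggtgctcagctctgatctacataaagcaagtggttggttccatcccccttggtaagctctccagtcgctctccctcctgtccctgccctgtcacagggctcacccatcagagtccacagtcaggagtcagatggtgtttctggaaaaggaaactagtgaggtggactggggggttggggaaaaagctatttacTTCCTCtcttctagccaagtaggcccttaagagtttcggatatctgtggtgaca
Mrc1 (GRCr8, chr17:82157475-82157724, plus strand): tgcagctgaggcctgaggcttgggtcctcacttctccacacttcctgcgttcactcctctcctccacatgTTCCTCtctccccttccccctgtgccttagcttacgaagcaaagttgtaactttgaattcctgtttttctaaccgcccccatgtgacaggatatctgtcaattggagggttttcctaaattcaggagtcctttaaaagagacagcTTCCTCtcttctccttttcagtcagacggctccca
Itgam (GRCr8, chr1:192089342-192089591, plus strand): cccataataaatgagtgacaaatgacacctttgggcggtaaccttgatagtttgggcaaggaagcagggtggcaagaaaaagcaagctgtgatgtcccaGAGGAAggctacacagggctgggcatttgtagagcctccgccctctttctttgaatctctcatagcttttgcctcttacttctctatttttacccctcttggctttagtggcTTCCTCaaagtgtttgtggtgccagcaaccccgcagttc
Counted from the start, matches began at base -207 in Adgre1, -27 in Cd68, -54 in Fcgr3a, -180 and -35 in Mrc1, and -151 and -39 in Itgam. No match lay in the windows of C1qa, C3ar1, Cd163, Coro1a, Cx3cr1, Ncf1 and Vsig4. Of these, Ncf1 and C3ar1 were called lower below, whereas Csf1r, with 2 matches, was not called.

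All levels are log2 intensity minus the 75th percentile of the same array, so a difference of 1 is a doubling of the signal and a negative level is no more than a signal below that percentile. Differences are given ± SE, and a gene was called when limma's p, adjusted over all genes tested by Benjamini and Hochberg, was under 0.05. Arrays fell into 3 scan sessions: session 1 with control and stretch replicates 1 to 3, session 2 with stretch replicates 4 to 7, and session 3 with control replicates 4 to 7 and all arrays with the drug. The sessions differed in sensitivity, with 82.6% to 91.2% of probes well above background per array in the first, 65.5% to 73.1% in the second and 71.4% to 79.9% in the third. Groups were therefore compared within sessions, and no session held both stretch and stretch with BIRB796. In session 3, slide 6 held control 4, BIRB796 replicate 1 and replicate 1 with both treatments. Slide 7 held controls 5 and 6 alone, and slide 8 held control 7 with replicates 2 and 3 of both treatments. Slide 9 held BIRB796 replicates 2 to 4 and replicate 4 of both treatments. Group and slide are thus partly confounded in session 3 and cannot be fully told apart. Stretch replicates 4 and 5 differed by less than the noise between repeated spots (0.593 times) and were counted as 1 sample.

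Several arrays stood apart for the members. Control replicate 7 was the lowest of the 4 session 3 controls in 29 of 30 members measured on all of them. The mean level of the 30 members with complete values was 1.22 on that array, against 2.02 to 2.18 on control replicates 4 to 6. Relative to the mean of the other 3 controls, control 7 differed by -0.87 in the members and -0.61 in 60 other myeloid genes. It differed by 0.27 in 15 endothelial markers, 0.44 in 12 fibroblast markers, 0.34 in 14 cardiomyocyte markers and 0.55 in 8 smooth muscle and pericyte markers, with a median of 0.02 over all genes. Controls 4 and 5 differed by 1.36 times the noise between repeated spots, 5 and 6 by 1.37 and 4 and 6 by 1.85. Control 7 differed from controls 4, 5 and 6 by 2.7, 3.2 and 3.6 times. Pairs within the drug groups ran from 1.44 to 4.14. Whether controls 4 to 6 are less independent of each other than of control 7 was not tested. In session 1, control replicate 2 was the lowest control in 29 of 31 members and control replicate 3 the highest in 25. In session 2, stretch replicate 7, the dimmest array of all with a 75th percentile of 510 intensity units, was the lowest in 27 of 31. The members spread more between replicates than genes in general: their median SD was 0.41 against 0.16 for all genes in the session 3 controls and 0.64 against 0.26 in the session 1 controls. In tissue with both treatments the members' median SD was 0.16, the same to 2 decimals as that of all genes.

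**Figure D1:**
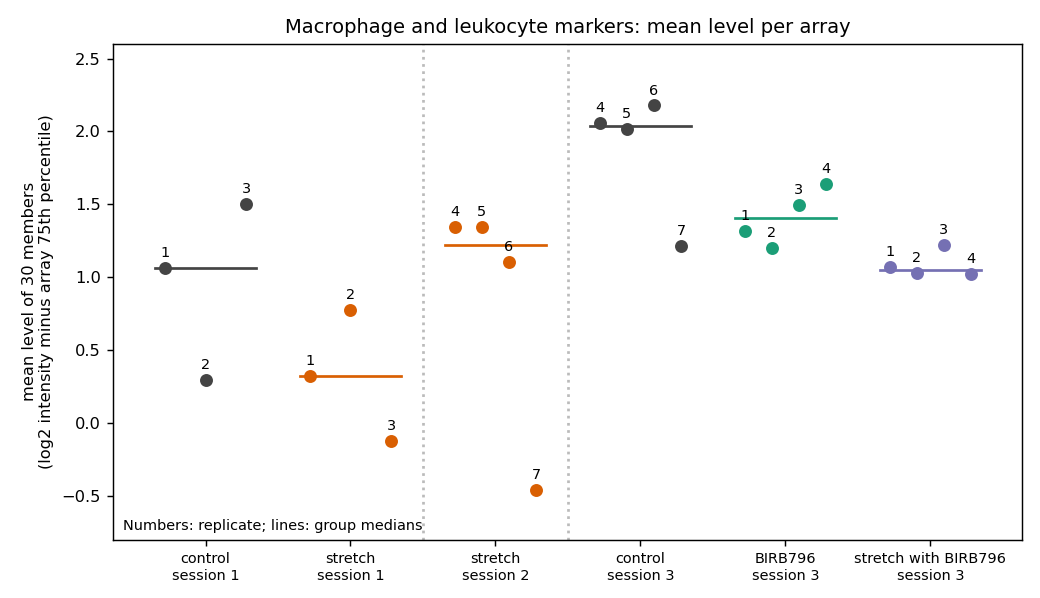
Mean level of the 30 members with complete values on each of the 22 arrays, as log2 intensity minus the array's 75th percentile, with replicate numbers beside the points and lines at group medians. Control 7 reads 1.22 beside 2.02 to 2.18 for the other session 3 controls, and the 4 arrays with both treatments read 1.02 to 1.22.

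The leukocyte label was borne out for macrophages. Of the 35 members 28 were well above background on all 22 arrays, among them the macrophage markers Cd68, Adgre1, Aif1 and Csf1r, the pan-leukocyte phosphatase Ptprc (CD45) and the 3 chains of C1q. The haemoglobin scavenger receptor Cd163 was not well above background on any array. Vsig4, a complement receptor of resident macrophages, was measured on 3 arrays, the lectin Clec10a on 4 and the chemokine receptor Ccr1 on 10. Few lymphocyte and granulocyte markers were detected throughout: 2 of 12 T and NK cell markers, 1 of 6 B cell markers and 1 of 10 neutrophil and mast cell markers on the array were well above background on every array. The T cell gene Cd2, the B cell gene Ms4a1 and the mast cell gene Ms4a2 were so on none. Detection of these lists depended on the session, with 10, 5 and 8 genes bright enough to test in session 1 and 5, 3 and 4 in session 3. Of 14 cardiomyocyte markers all 14 were above background throughout.

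Against control tissue, tissue given both stretch and BIRB796 had lower levels of most members. Of 32 members tested 20 were called lower and 0 higher (limma), where 6.34% of 20179 genes were called lower and 4.75% higher. The median difference was -0.77 on the log2 scale, against 0.04 over all genes tested. All but Cx3cr1 and Cd74 had negative differences, and negative differences made up 43.8% of all genes. In 15 of the 32 every array with both treatments lay below every control, a separation found in 9.47% of all genes. The count rested on the arrays: leaving out control 7 gave 28 called lower (10.4% of all genes) and a median of -1.03, while leaving out control 4, 5 or 6 gave 4, 3 and 4 (1.87%, 1.55% and 1.83% of all genes), and leaving out replicate 1, 2, 3 or 4 with both treatments gave 9, 11, 11 and 6 (3.78%, 4.82%, 4.26% and 2.92%). Treating the 2 controls of slide 7 as 1 sample left 4 called (1.72%), and a fit of all samples with a term for the session left 1 (0.0767%). Of the 20 members, Adgre1, Aif1 and Clec10a were called in all 8 fits that left out 1 array, Cd68 in 7, and Cd53, Ctss, Cybb, Lcp1, Ncf1, Ptprc, Trem2 and Tyrobp in 1 of the 8 each. Clec10a passed the filter on dim probes mostly through control arrays, and its calls rest on values below detection with both treatments. Members not called with all arrays were called in 1 of the 8 as well: C1qb, C1qc, C5ar1, Cd14, Coro1a, Fcgr2b, Laptm5 and Lyz2.

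**Figure D2:**
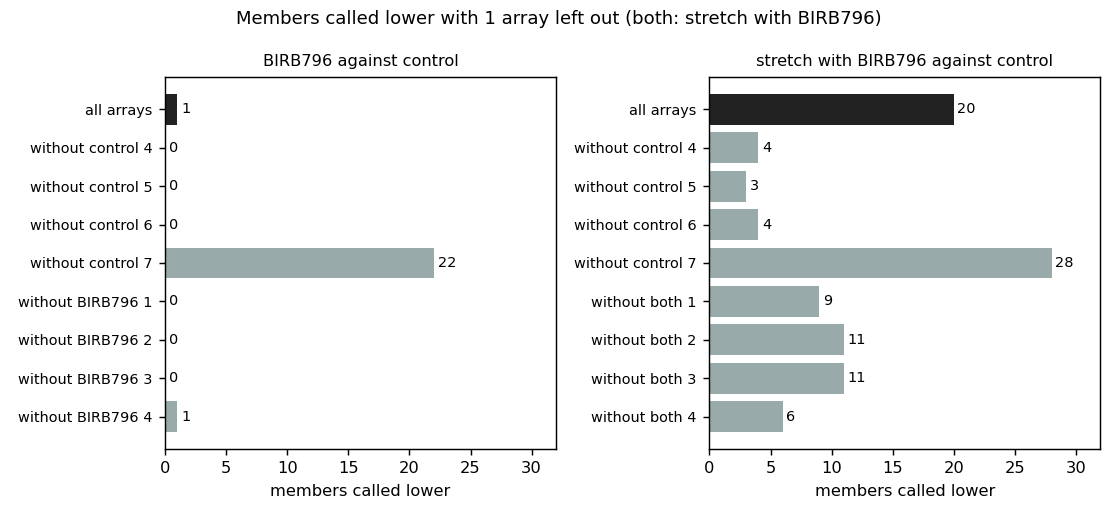
Number of members called lower than control (adjusted p under 0.05, limma) with all session 3 arrays and with each array left out in turn, for BIRB796 on the left and for stretch with BIRB796 on the right. Leaving out control 7 raises the counts from 1 to 22 and from 20 to 28, and leaving out another control lowers them to 0 and to between 3 and 4.

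Arrays of the same slide gave both a large and a small difference. On slide 6, stretch with BIRB796 replicate 1 was below control 4 in 29 of 30 members, with a median of -1.03. On slide 8, replicates 2 and 3 averaged were below control 7 in 21 of 31, with a median of -0.13.

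**Figure D3:**
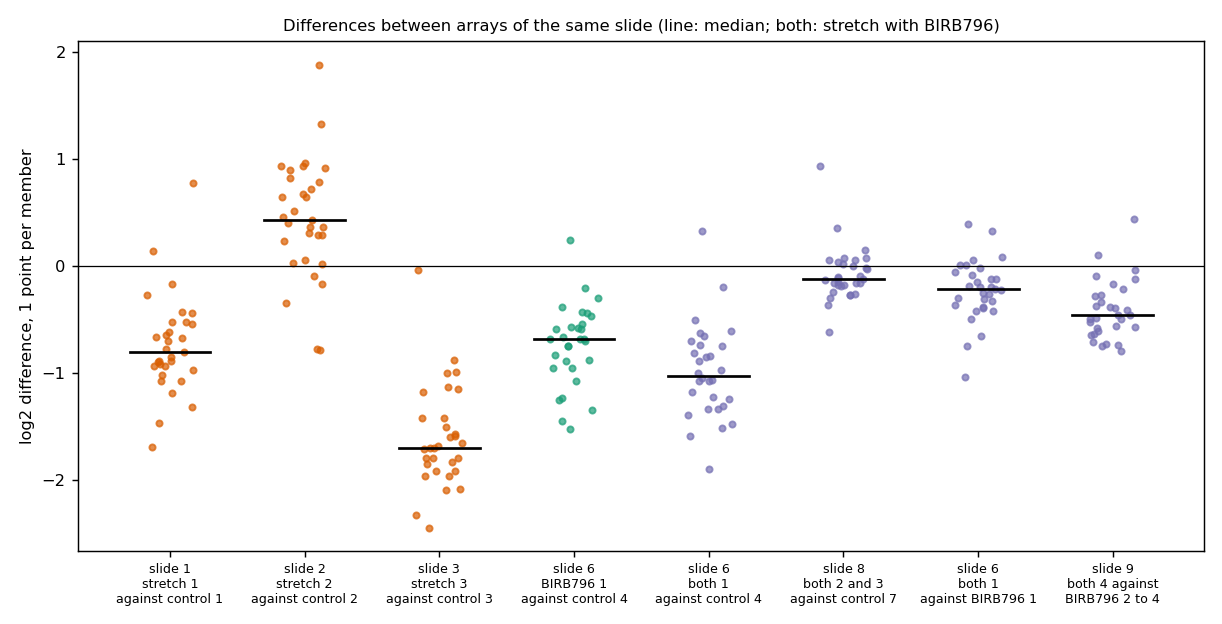
Log2 difference of each member between arrays hybridised on the same slide, 1 point per member with a line at the median; both stands for stretch with BIRB796. The median is -1.03 on slide 6 and -0.13 on slide 8 for both treatments against control, and runs from -1.70 to 0.43 over the 3 slides of stretch against control.

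Among the 6 genes of identity and growth factor signalling 4 were called lower with both treatments. Spi1, which encodes PU.1, read -2.04, -2.03, -1.94 and -2.54 in control, -2.72, -2.71, -2.68 and -2.56 in BIRB796 and -3.09, -2.74, -2.64 and -3.38 in stretch with BIRB796. It fell by 0.83 ± 0.17 (adjusted p = 0.0153), and all 4 arrays with both treatments lay below all 4 controls, of which control 7 was the lowest. Adgre1, the adhesion G protein-coupled receptor known as F4/80, read 3.79, 3.94, 4.16 and 2.97 in control, 2.95, 3.14, 3.26 and 3.33 in BIRB796 and 2.21, 2.45, 2.76 and 2.45 in stretch with BIRB796. Its fall of 1.25 ± 0.22 (adjusted p = 0.0101), 2.38-fold, was one of those called in all 8 fits. The 3 groups formed steps in this gene, with every array of both treatments below every BIRB796 array and BIRB796 overlapping control only through control 7. Aif1, the actin-bundling protein Iba1, read 4.61, 4.54, 4.79 and 3.86 in control, 3.86, 3.67, 3.97 and 3.89 in BIRB796 and 3.60, 3.45, 3.67 and 3.47 in stretch with BIRB796. It fell by 0.90 ± 0.17 (adjusted p = 0.0121), also in all 8 fits, and its other probe gave -0.93 ± 0.18. Ptprc read 0.84, 0.81, 0.97 and 0.16 in control, 0.25, 0.34, 0.70 and 0.70 in BIRB796 and 0.03, -0.11, 0.07 and 0.02 in stretch with BIRB796. By this brighter probe every array with both treatments lay below every other array of the session, and Ptprc fell by 0.69 ± 0.17 (adjusted p = 0.0272). Its other probe gave -0.62 ± 0.22 and was not called (adjusted p = 0.0877). By that probe control 7, at -2.90, lay inside the range with both treatments, -3.40 to -2.76. Csf1r, the receptor that keeps macrophages alive, differed by -0.46 ± 0.16 and was not called (adjusted p = 0.0835), and its other probe gave -0.23 ± 0.15. The fractalkine receptor Cx3cr1 differed by 0.19 ± 0.09 (adjusted p = 0.211).

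The Cx3cr1 probe is shown because of how it ends. The last 30 bases of the 60-base probe on the array hold a CA repeat, in capitals, that reaches the probe's end.
Cx3cr1 probe, last 30 bases: aacagattCACACACACACACACACACACA
Runs of CA of at least 16 bases occur in 15 of 30367 probes (0.0494%). Stretch replicate 7, lowest of its session in 27 of 31 members, was the highest of all arrays in Cx3cr1 and in Cd74, the 2 members with positive differences above. It read -1.17 in Cd74 and 0.04 in Cx3cr1, where stretch replicates 4, 5 and 6 read -0.88, -0.93 and -0.97 in the latter. What this probe measures besides Cx3cr1 was not tested.

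Of the complement genes 1 of 5 tested was called lower, and all 5 had negative differences with an unadjusted p under 0.05 (limma). C3ar1, the receptor for the C3a fragment, read -2.03, -1.92, -1.77 and -2.47 in control, -3.38, -2.75, -2.68 and -2.55 in BIRB796 and -3.51, -2.86, -2.64 and -3.15 in stretch with BIRB796. It fell by 0.99 ± 0.23 (adjusted p = 0.0229), with no overlap with control, and BIRB796 alone did not overlap control either. The subunits of C1q, which starts the classical pathway and which macrophages make themselves, differed by -0.36 ± 0.13 in C1qa, -0.45 ± 0.17 in C1qb and -0.63 ± 0.20 in C1qc. Their adjusted p values were 0.0967, 0.111 and 0.0621, so none was called, although all 3 would pass without adjustment. The C5a receptor C5ar1 differed by -0.58 ± 0.19 (adjusted p = 0.0654), and Vsig4 was not well above background on any session 3 array.

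Fc receptors, ITAM adaptors and Trem2, grouped as 1 role, were called lower in 4 of 5 genes. Fcer1g, the common gamma chain, read 5.32, 5.23, 5.32 and 4.07 in control, 4.44, 4.26, 4.72 and 4.51 in BIRB796 and 4.01, 3.82, 3.96 and 3.75 in stretch with BIRB796. It fell by 1.10 ± 0.25 (adjusted p = 0.0205), 2.14-fold. Every array with both treatments lay below every control and every BIRB796 array. Fcgr3a, an activating receptor for IgG, read 0.66, 0.66, 0.98 and -0.48 in control, 0.36, -0.68, -0.18 and -0.25 in BIRB796 and -0.67, -1.31, -0.88 and -0.98 in stretch with BIRB796. Its fall of 1.41 ± 0.30 (adjusted p = 0.0181) was the largest of the members above background on all arrays, 2.66-fold. Tyrobp (DAP12), the adaptor of Trem2, read 6.09, 5.92, 6.09 and 5.05 in control, 5.20, 5.11, 5.52 and 5.59 in BIRB796 and 5.11, 4.76, 5.03 and 5.12 in stretch with BIRB796, with control 7 inside the range of the group with both treatments. It fell by 0.78 ± 0.22 (adjusted p = 0.0421). Trem2, a lipid-sensing receptor, read 4.94, 4.69, 4.83 and 3.59 in control, 3.87, 3.88, 4.15 and 4.29 in BIRB796 and 3.72, 3.37, 3.52 and 3.47 in stretch with BIRB796, and it also overlapped control through control 7. It fell by 0.99 ± 0.25 (adjusted p = 0.0307).

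The inhibitory IgG receptor Fcgr2b was not called by its brighter probe, at -0.77 ± 0.27 (adjusted p = 0.0914). Its other probe, spotted 10 times per array, gave -2.28 ± 0.34 (adjusted p = 0.00666). The probes shared no run of over 7 bases, and their 3′ ends are shown because their results differ.
Fcgr2b probe with the higher signal, last 30 bases: atgcacgtgtccaagcctgtcaccatcact
Fcgr2b probe with 10 spots, last 30 bases: agacgtgtaccaacctgtcaaaagtgatgc
The array's annotation places the first at chr13:86815061-86815120 and the second at chr13:86809091-86809150 of build rn4, both on the minus strand. In stretch against control of session 1 the probes differed in sign, at -0.67 ± 0.40 and 0.36 ± 0.51, with neither called. Fcgr2b belongs to a family of close relatives, and the direction in session 1 depended on the probe.

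Scavenger, lectin and pattern receptors were called lower in 4 of 5 genes tested. Mrc1, the mannose receptor CD206, read -1.20, -1.02, -0.86 and -2.42 in control, -2.44, -2.55, -2.43 and -2.13 in BIRB796 and -3.10, -2.46, -2.43 and -2.76 in stretch with BIRB796. It fell by 1.31 ± 0.30 (adjusted p = 0.0215), 2.48-fold, with control 7 at -2.42 and the highest array of both treatments at -2.43. Msr1, the scavenger receptor for modified lipoprotein, read -0.41, -0.28, -0.06 and -1.57 in control, -1.86, -1.88, -1.77 and -1.28 in BIRB796 and -1.80, -1.89, -1.57 and -2.03 in stretch with BIRB796. It fell by 1.24 ± 0.28 (adjusted p = 0.0220), and control 7 lay at the top of the treated range. Cd68, a lysosomal glycoprotein used to count macrophages, read 2.57, 2.55, 2.88 and 1.64 in control, 1.62, 1.51, 1.68 and 1.96 in BIRB796 and 1.23, 1.31, 1.42 and 1.15 in stretch with BIRB796. It fell by 1.13 ± 0.22 (adjusted p = 0.0134), 2.19-fold, with steps from control to BIRB796 to both treatments that only control 7 broke. Clec10a, the galactose-binding lectin CD301, read -5.40, -5.41, -5.07 and -7.51 in control, -8.53, -9.12, -8.34 and -7.14 in BIRB796 and -8.87, -8.66, -8.69 and -8.97 in stretch with BIRB796. It was well above background on control replicates 4 to 6, on BIRB796 replicate 4 and on no array with both treatments, so only a bound can be given: control was at least 3.22-fold higher. Its call (adjusted p = 0.00982) rests on values below detection in the group with both treatments. Its 10 spots per array differed by a median SD of 0.42. Cd14, the co-receptor for bacterial endotoxin, differed by -0.74 ± 0.37 (adjusted p = 0.225). Control replicate 4 is missing from that value because its spot carried an outlier flag. Cd163 had no level above background.

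Lysosomal, antigen handling and oxidase genes were called lower in 3 of 6. Cathepsin S, Ctss, which trims the invariant chain, read 2.84, 2.79, 2.90 and 2.16 in control, 2.40, 2.17, 2.55 and 2.60 in BIRB796 and 2.13, 2.02, 2.08 and 1.95 in stretch with BIRB796. With both treatments it was below every other array, and it fell by 0.63 ± 0.16 (adjusted p = 0.0290). Both NADPH oxidase subunits fell, each called in 1 of the 8 fits that left out an array: Cybb, the membrane subunit, by 0.84 ± 0.23 (adjusted p = 0.0393) and Ncf1, the cytosolic organiser, by 1.25 ± 0.35 (adjusted p = 0.0420). Cybb read -0.78, -0.67, -0.60 and -1.64 in control, -1.52, -1.59, -1.72 and -1.01 in BIRB796 and -1.85, -1.75, -1.50 and -1.96 in stretch with BIRB796. Ncf1 read 4.14, 4.14, 4.46 and 2.54 in control, 2.62, 3.04, 3.20 and 3.45 in BIRB796 and 2.63, 2.53, 2.51 and 2.60 in stretch with BIRB796. In both genes control 7 lay inside the range of the arrays with both treatments and the other 3 controls lay above every treated array. Lysozyme, Lyz2, differed by -0.63 ± 0.21 (adjusted p = 0.0771) and the lysosomal protein Laptm5 by -0.55 ± 0.17 (adjusted p = 0.0623). The invariant chain Cd74 was the member with the largest positive difference, 0.31 ± 0.22 (adjusted p = 0.395). MHC class II genes, which Cd74 serves, were called in 0 of 5 tested, with a median of 0.24 and 2 at an unadjusted p under 0.05 lower and 1 higher (limma), where 13.8% of all genes were lower at that p.

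Genes of adhesion, the leukocyte cytoskeleton and migration were called lower in 4 of 5 tested. The integrin chain Itgam (CD11b) read 0.16, 0.14, 0.21 and -0.53 in control, -0.38, -0.78, -0.13 and -0.29 in BIRB796 and -0.67, -0.90, -0.66 and -1.13 in stretch with BIRB796. With both treatments it did not overlap control, and it fell by 0.83 ± 0.19 (adjusted p = 0.0220). Its partner Itgb2 (CD18), the beta chain of leukocyte integrins, read -0.32, -0.19, 0.18 and -1.73 in control, -1.28, -1.54, -1.0 and -1.05 in BIRB796 and -1.50, -2.01, -1.98 and -1.90 in stretch with BIRB796. It fell by 1.33 ± 0.34 (adjusted p = 0.0305), 2.52-fold, with control 7 inside the treated range. Lcp1, the actin-bundling L-plastin, read 3.58, 3.59, 3.80 and 3.00 in control, 2.99, 3.08, 3.50 and 3.41 in BIRB796 and 2.97, 2.78, 2.84 and 2.87 in stretch with BIRB796, and fell by 0.63 ± 0.17 (adjusted p = 0.0357). The tetraspanin Cd53 read 2.33, 2.22, 2.48 and 1.71 in control, 1.63, 1.61, 2.02 and 2.15 in BIRB796 and 1.44, 1.54, 1.63 and 1.59 in stretch with BIRB796, and fell by 0.63 ± 0.17 (adjusted p = 0.0363). Neither Lcp1 nor Cd53 overlapped control. Coronin 1A, Coro1a, differed by -0.71 ± 0.22 (adjusted p = 0.0631). Ccr1 was well above background on 2 of 4 controls and on 0 of 4 arrays with both treatments, at least 1.71-fold higher in control, and was too dim to be tested.

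**Figure D4:**
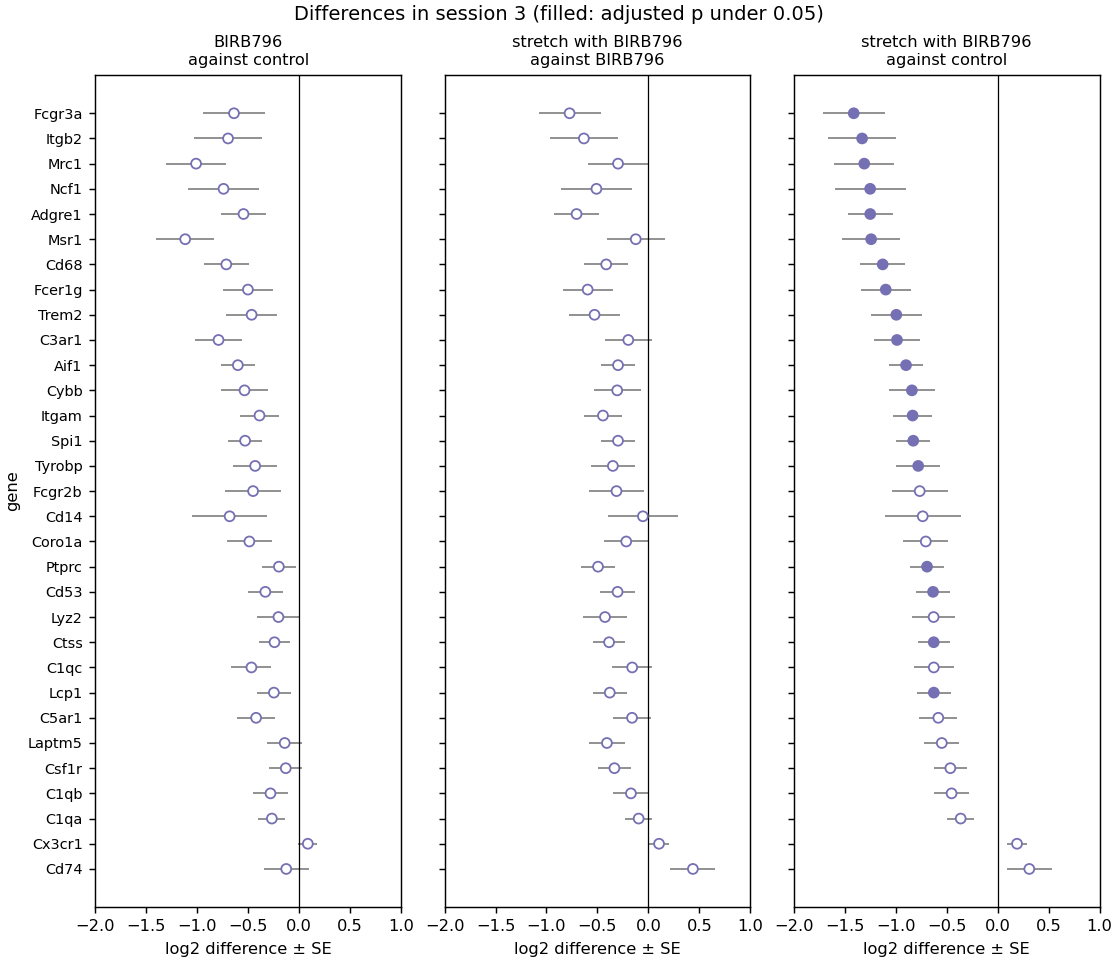
Log2 differences ± SE of 31 members in the 3 comparisons of session 3, from the same fit of 12 arrays; filled points were called, and Clec10a is left out because it has only a bound. The right panel is the sum of the other panels, and 19 of its points are filled against 0 in either of the others.

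BIRB796 alone was compared with the same 4 controls, so this comparison shares them with the one above. It gave differences of the same sign in nearly all members, of which 1 of 32 was called lower and 0 higher. Over all genes limma called 1.83% lower and 1.84% higher (369 and 372 genes, or 217 and 446 with arrays scaled to their median). The members' median was -0.47, against 0.01 over all genes, and 31 of 32 differences were negative, against 47.5% of all genes. Clec10a was the member called (adjusted p = 0.0317). It was well above background on 1 of 4 BIRB796 arrays and 3 of 4 controls, so this call, and the fitted difference of -2.44, rest mostly on BIRB796 values below detection. Next were Msr1 at -1.12 ± 0.28 (adjusted p = 0.0549), Aif1 at -0.60 ± 0.17 (0.0709), C3ar1 at -0.79 ± 0.23 (0.0757) and Mrc1 at -1.01 ± 0.30 (0.0775). Scavenger, lectin and pattern receptors had the lowest median of the 6 roles, -1.01. The other 5 role medians ran from -0.47 to -0.22, and lysosomal genes had the one nearest 0. In 2 of 32 members, C3ar1 and Spi1, all 4 BIRB796 arrays lay below all controls, against 5.92% of all genes.

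The call count for BIRB796 turned on control 7. Without it 22 members were called lower, where 6.75% of all genes were, and the median became -0.72. Without control 4, 5 or 6 the count was 0 (limma), as were 0.0% of all genes called lower. Without BIRB796 replicate 1, 2 or 3 it was also 0, where 0.252%, 0.355% and 1.19% of all genes were. It was 0 too with slide as a random block (0.684%) and with all samples and a session term (0.0%). On slide 6, the slide that held control 4, BIRB796 replicate 1 was lower than control 4 in 29 of 30 members (median -0.69).

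Stretch in the presence of the inhibitor was compared with the inhibitor alone. No member passed the test among 32 (limma), with 8 lower and 0 higher at an unadjusted p under 0.05, where 4.32% of all genes were lower at that p. That count of 8 fell to 2 without BIRB796 replicate 3 or without replicate 2 or 4 with both treatments, and to 3 without BIRB796 replicate 4. It was 15 with the groups compared alone and 18 with the replicate number as a block. Genes at that p in either direction (limma) numbered 1806 of 20179 in the main fit. They numbered 1768 of 19657 with the groups compared alone, 2163 of 19657 with the block and 1556 to 1722 in the fits just named that left out an array. Over all genes, 0.0347% were called lower and 0.0892% higher. The median was -0.32 against 0.01 over all genes, and 30 of 32 differences were negative against 47.2% of all genes. The 6 smallest p values belonged to Adgre1 (-0.71 ± 0.22, adjusted p = 0.335), Ptprc (-0.49 ± 0.17), Fcgr3a (-0.77 ± 0.30), Ctss (-0.39 ± 0.16), Fcer1g (-0.60 ± 0.25) and Laptm5 (-0.41 ± 0.17, adjusted p = 0.518). All but Laptm5 are listed above array by array. The other probes of Ptprc and Fcer1g gave -0.12 ± 0.22 and -0.39 ± 0.20. The 10-spot probe of Fcgr2b gave -1.16 ± 0.34 (limma, unadjusted p = 0.00521, adjusted p = 0.321), against -0.31 ± 0.27 by the brighter one. Laptm5 read 5.42, 5.15, 5.19 and 4.54 in control, 4.74, 4.83, 5.04 and 5.12 in BIRB796 and 4.34, 4.47, 4.75 and 4.54 in stretch with BIRB796, and its groups with BIRB796 overlapped at a single array of each. In 7 of 32 members every array with both treatments was below every BIRB796 array, against 2.82% of all genes. Complement genes had the role median nearest 0, -0.16, and Fc receptors and adaptors the lowest, -0.53. On slide 6 the difference was negative in 25 of 31 members (median -0.22), and on slide 9 in 29 of 31 (median -0.46). This comparison uses no control array, so control 7 does not enter its differences. The main fit shares 1 estimate of the spread over all 3 groups, so control 7 does enter the SE and p.

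**Figure D5:**
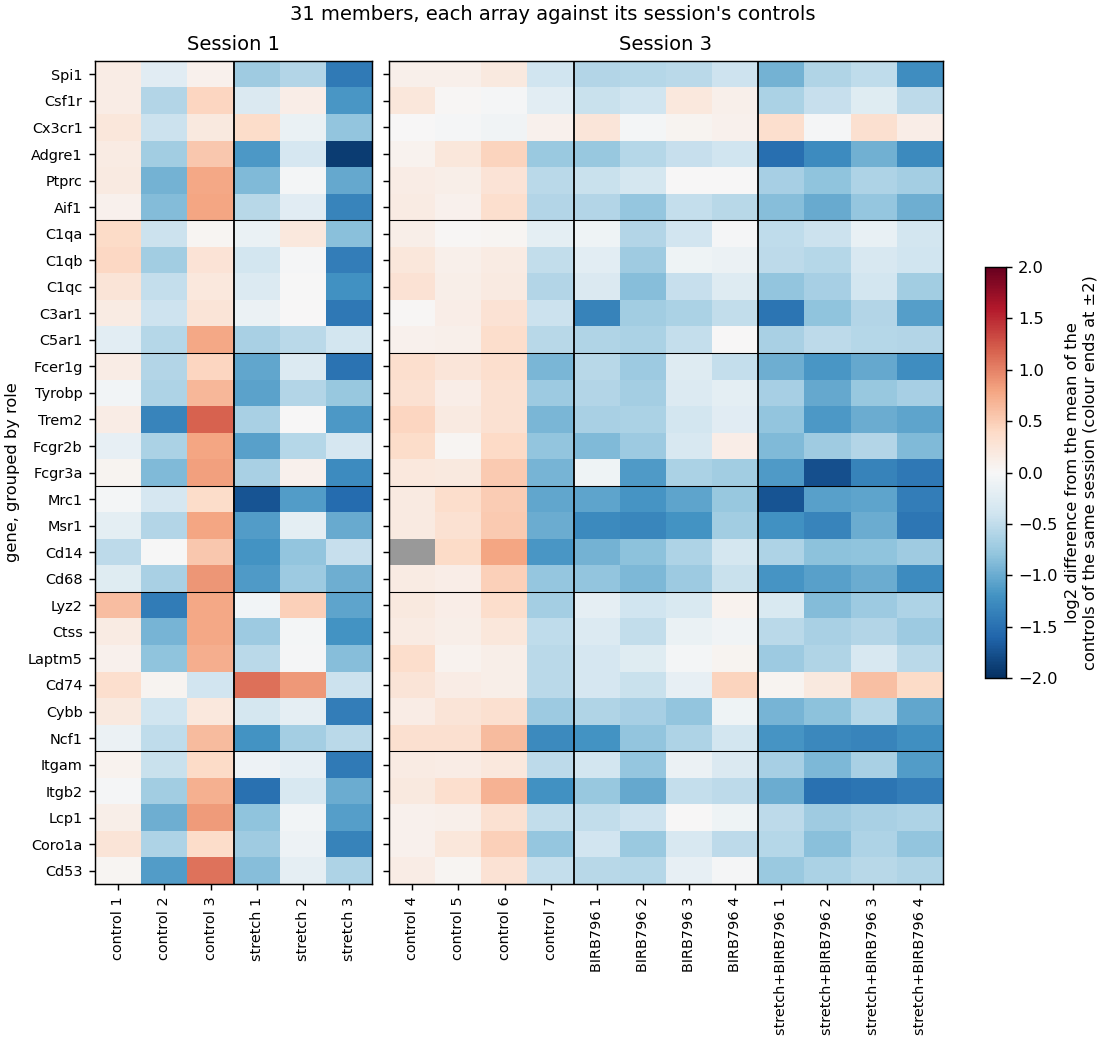
Each array of sessions 1 and 3 against the mean of the controls of its own session, for the 31 members well above background on at least 21 of 22 arrays, in rows grouped by role; colours are log2 differences that end at ±2, and grey is a missing value. Control 7 and the treated arrays of session 3 are blue in most rows, and in session 1 control 2 and stretch 3 are blue while control 3 is red.

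Stretch without the inhibitor was compared in session 1, 3 arrays against 3. No member was called among 33 (limma), as 0.0% of 23535 genes were, with 3 members lower and 0 higher at an unadjusted p under 0.05, where 1.48% of all genes were lower at that p. On simulated data this fit called 0% of genes changed by 1 log2 unit, so the lack of calls says little about changes of that size. The median of the members was -0.65 against 0.08 over all genes, and 31 of 33 differences were negative against 37.0% of all genes. Mrc1 read -1.30, -1.59 and -0.89 in control and -3.0, -2.37 and -2.81 in stretch. Every stretch array was below every control, by 1.46 ± 0.26 on average (unadjusted p = 0.00121, adjusted p = 1.00), and this gene had the smallest p of the members. Spi1 read -1.83, -2.20 and -1.89 in control and -2.68, -2.55 and -3.39 in stretch, a difference of -0.90 ± 0.27, also without overlap. Cd14 read 2.27, 2.80 and 3.34 in control and 1.61, 2.01 and 2.34 in stretch, a difference of -0.82 ± 0.33 with overlapping groups. Cd68 (-0.95 ± 0.40) read 1.15, 0.74 and 2.26 in control and 0.26, 0.65 and 0.41 in stretch, and Ncf1 (-0.81 ± 0.34) read 2.54, 2.14 and 3.29 in control and 1.47, 1.97 and 2.11 in stretch. Both were without overlap, and 4 of 33 members were, against 3.46% of all genes. Fcer1g (-0.93 ± 0.40) read 4.21, 3.48 and 4.50 in control and 3.02, 3.79 and 2.58 in stretch, with control 2 below stretch 2. Clec10a and Cd163 were not above background in session 1 and were not tested.

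The 3 slides of session 1, each with 1 control and 1 stretch array, did not give the same direction. Stretch was below control in 29 of 31 members on slide 1 (median -0.81), in 31 of 31 on slide 3 (median -1.70) and in 5 of 31 on slide 2 (median 0.43), the slide of the low control 2. The members lower at an unadjusted p under 0.05, 3 in all, became 15 without control 2, 2 to 6 without another array, 6 with the replicate number (here the slide) as a block and 8 with slide as a random block. All genes at that p in either direction (limma) numbered 656 of 23535 in the main fit, 554 of 23890 without control 2 and 270 to 1907 without another array. They numbered 1101 of 23535 with the block and 1265 of 23502 with slide as a random block. Leaving out control 2 moved the members' median to -1.03 and leaving out control 3 moved it to -0.36. Weighting arrays by their noise moved it to -0.19.

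In the other stretch arrays, scanned in session 2 with no control, the mean level of the 30 members was 1.34 with replicates 4 and 5 averaged, 1.10 in replicate 6 and -0.46 in replicate 7. Mrc1 was well above background on 3 of these 4 arrays. Replicate 7 read -7.80 in Mrc1, where replicates 4, 5 and 6 read -1.39, -1.41 and -2.95, and -2.33 in Adgre1, where they read 2.68, 2.64 and 1.96. Session and treatment cannot be told apart for these arrays.

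Whether the effect of stretch differed with and without the inhibitor was tested as the difference of the within-session differences. None of 33 members passed (limma), and 0 had an unadjusted p under 0.05 by the brighter probe, where 1.29% of all genes did. In a fit of every probe, the 10-spot probe of Fcgr2b gave -1.52 ± 0.66 (limma, unadjusted p = 0.0344) and was not called. The brighter Fcgr2b probe gave 0.35 ± 0.52. On simulated data this fit called 8% of genes changed by 1 log2 unit, so few differences of that size could be called. Of the 33, 29 were positive, which is to say less negative with the inhibitor, against 42.6% of all genes, and the median was 0.30 against -0.05. Without control 3 the median was 0.01, and without stretch 3 it was 0.02, each with 16 of 33 differences negative. With array weights it was -0.09. The smallest p values were those of Ccr1 (-1.74 ± 1.00), which was well above background on 10 of 22 arrays, then Tyrobp (0.46 ± 0.41), Cd68 (0.53 ± 0.49), Cd14 (0.76 ± 0.71), Spi1 (0.60 ± 0.57) and Coro1a (0.50 ± 0.51). In session 1 Tyrobp read 4.65, 4.09 and 5.37 in control and 3.63, 4.12 and 3.94 in stretch, and Ccr1 -5.69, -6.22 and -6.55 in control and -6.23, -5.71 and -5.78 in stretch. In session 3 Ccr1 read -6.93, -6.66, -6.38 and -7.06 in control, -10.12, -7.24, -8.38 and -5.53 in BIRB796 and -9.71, -9.87, -9.34 and -8.32 in stretch with BIRB796, where it was dim. Cd14 there read 3.55, 3.96 and 2.01 in control replicates 5 to 7, 2.23, 2.35, 2.56 and 2.81 in BIRB796 and 2.56, 2.35, 2.37 and 2.46 in stretch with BIRB796, with overlapping groups. Coro1a, a regulator of actin in leukocytes, read 2.72, 1.84 and 2.83 in control and 1.75, 2.36 and 1.12 in stretch in session 1, and 3.46, 3.60, 3.85 and 2.59 in control, 2.99, 2.64, 3.06 and 2.85 in BIRB796 and 2.80, 2.53, 2.77 and 2.58 in stretch with BIRB796 in session 3.

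Genes around the members were described in the same way. Of 57 other myeloid genes tested 35 were called lower with both treatments and 0 higher, and their median, -0.77, equalled that of the members to 2 decimals. The smallest p values belonged to Clec4a2 (-1.61 ± 0.25, adjusted p = 0.00743), Itgal (-0.87 ± 0.14, adjusted p = 0.00791) and Clec4a3 (-1.13 ± 0.19, adjusted p = 0.00882). Under BIRB796 alone 3 of the 57 were called lower, where 1.83% of all genes were. Lyve1 had the smallest p (-1.69 ± 0.30, adjusted p = 0.0201) and encodes a hyaluronan receptor of resident macrophages and lymphatic vessels. Stretch in the presence of BIRB796 and stretch in session 1 gave 0 calls in this list (limma), with 12 and 6 lower and 0 and 0 higher at an unadjusted p under 0.05. Over all genes 4.32% and 1.48% were lower at that p.

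Of 15 ligands that sustain, recruit or tag for macrophages 5 were called lower and 2 higher with both treatments, where 6.34% and 4.75% of all genes were. Il34, a ligand of Csf1r, read 1.97, 1.95, 2.02 and 1.77 in control, 1.45, 1.96, 1.77 and 1.83 in BIRB796 and 1.17, 1.25, 1.39 and 1.26 in both. It fell by 0.66 ± 0.11 (adjusted p = 0.00830). Csf1, the other ligand, differed by -0.44 ± 0.15 and was not called (adjusted p = 0.0851). Complement C3, the source of the ligand of C3ar1, read 5.10, 5.11, 5.15 and 4.25 in control, 3.67, 4.70, 4.24 and 4.85 in BIRB796 and 3.34, 3.40, 3.85 and 3.70 in both. It fell by 1.33 ± 0.27 (adjusted p = 0.0154), and C5 fell by 1.39 ± 0.22 (adjusted p = 0.00763). The monocyte attractant Ccl2 differed by -0.21 ± 0.32 (adjusted p = 0.726). The 2 that rose were Cxcl12 (0.58 ± 0.14, adjusted p = 0.0241) and Gas6 (0.24 ± 0.06, adjusted p = 0.0396), a bridge to dying cells.

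Markers of other cells moved with both treatments as well, and their part in the members' result was not tested. Over all genes 6.34% were called lower and 4.75% higher with both treatments, and 1.83% and 1.84% with BIRB796 alone. Of 15 endothelial markers 8 were called lower and 0 higher (median -0.83), and their mean level ran from -2.38 to -1.96 in the session 3 controls and from -3.01 to -2.76 with both treatments. Of 8 smooth muscle and pericyte markers 5 were called higher and 0 lower (median 1.14), with means of 1.39 to 2.01 and 2.37 to 3.34. Under BIRB796 alone 5 of these 8 were also called higher (median 1.18), and 0 of 15 endothelial markers were called (limma), of which 6 were lower and 2 higher at an unadjusted p under 0.05. Of 14 cardiomyocyte markers 0 were called (limma; 1 lower and 0 higher at an unadjusted p under 0.05), with means of 5.23 to 5.58 in control and 5.27 to 5.39 with both treatments. Of 12 fibroblast markers 2 were called higher and 1 lower. Lymphocyte and granulocyte lists had few genes bright enough to test: 0 of 5 T and NK cell markers, 1 of 3 B cell markers (Cd79b) and 1 of 4 neutrophil and mast cell markers (Csf3r, which macrophages also carry) were called lower.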

How the data were processed

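The authors deposited Agilent scanner files of intensity, which Feature Extraction had corrected for background and spatial trend on each array (versions 10.7.1.1, 10.7.3.1 and 11.0.1.1, build rn4), per the file headers, and a table of log2 values whose centring is not given in the sources used here. That table followed each array's scanner values with r of 0.9996 to 0.9999. From the intensity, log2 values minus the array's 75th percentile were computed, spots with an outlier flag were dropped, spots of a probe were averaged and the brightest probe of a gene was kept. A gene was tested if well above background on at least as many arrays as the smallest group in the fit held. In the main fits that was 3 arrays of session 1, or 4 of session 3 or of all sessions. limma 3.58.1 (R 4.3.3) was fitted to session 1 (stretch against control), to session 3 (all 3 of its groups) and to all samples with a session term (difference of effects), after testing on simulated data. Tests were two-sided. Where a group was dim on every array the fold is a bound, the bright group's mean over the dim group's, each dim array taken no lower than its lowest signal well above background. The number of arrays limits the precision.

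The members, gene lists and roles were chosen with earlier results of these data known. All 35 members are accounted for. Genes called, or else the 6 with the smallest p in a comparison, are given with every sample, and genes of other lists by calls and the 3 smallest p, apart from a few items that are not reported here. Same-numbered arrays of session 1 shared a slide, and their deviations correlated with r of 0.505, 0.148 and 0.569. The second pair was no closer than control 1 with stretch 2 (0.30) or control 2 with stretch 1 (0.217). Pairing by number and by slide cannot be told apart in that session. With the replicate block 0 members were called there, as without it, and 6 instead of 3 were lower at an unadjusted p under 0.05 (limma). Over all 23535 genes, 1101 instead of 656 were under that p in either direction. In session 3 the arrays numbered 1 with BIRB796 and with both treatments, which shared slide 6, had r of 0.53. Those numbered 2, 3 and 4 had 0.014, 0.084 and 0.076, so the numbers did not pair these samples throughout. Alternatives are in the closing section.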

Additional observations from a re-analysis of the deposited data

Results flagged for a closer look

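Groups of 4 samples were screened for an array whose gap to its nearest neighbour exceeded 0.829 of the group's range, Dixon's limit for 4 values. Chance passes about 1 in 20 groups, and 9 of 95 passed here, all of them control replicate 7 among the session 3 controls. Spi1 read -2.54 there, against -2.04 to -1.94 on the other 3 controls, on the log2 scale relative to the array's 75th percentile. Among ITAM adaptors, Fcer1g read 4.07 against 5.23 to 5.32 and Tyrobp 5.05 against 5.92 to 6.09. The lectin Clec10a read -7.51 against -5.41 to -5.07, and it was not well above background on that array. Ctss read 2.16 against 2.79 to 2.90 and its partner in antigen handling, Cd74, -3.91 against -3.25 to -3.12. The oxidase subunits Cybb and Ncf1 read -1.64 against -0.78 to -0.60 and 2.54 against 4.14 to 4.46. Itgam read -0.53 against 0.14 to 0.21. These 9 genes share 1 array, so they are not 9 separate events.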

How the results depend on the processing

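The members' median kept its negative sign under all alternatives run for stretch against control (-1.30 to -0.19), BIRB796 against control (-0.72 to -0.33), stretch with BIRB796 against BIRB796 (-0.42 to -0.26) and stretch with BIRB796 against control (-1.03 to -0.66). For the difference of effects it ran from -0.09, with array weights, to 0.72. Counts moved more, and apart from fewer samples or genes the cause was not tested. With both treatments against control, 20 members were called lower, where 6.34% of all genes were. The count was 1 with all samples and a session term (0.0767% of all genes), 13 without a filter on dim probes (3.28%), 4 with control replicates 5 and 6 averaged (1.72%), 11 with the groups compared alone (4.49%) and 3 to 28 with each array left out (1.55% to 10.4%). For BIRB796 alone the count was 1 (1.83%), and became 5 with normexp and quantile normalization (3.07%), 25 with array weights (16.5%), 0 with a session term, without a filter, with slide as a random block, with controls 5 and 6 averaged or with the groups compared alone, and 0 to 22 with each array left out. Stretch of session 2 against control of session 3, without a session term, called 4 lower and 1 higher, where 3.14% and 1.99% of all genes were, against 0 in session 1. That fit and the groups compared alone were chosen after seeing the data. The replicate block called 0 members in stretch against control, in stretch with BIRB796 against BIRB796 and in the difference of effects. A replicate block could not be fitted for BIRB796 or both treatments against control, because these groups share only number 4. With slide as a random block 0 and 18 members were called there. Normexp used median spot signals, since not all files hold means, and the iteration for array weights stopped early in some fits.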
